A study of Mus musculus with 9 samples.

Results

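Mitochondrial ribosomal proteins were examined in heart tissue of C57BL/6 mice by RNA sequencing, as the rows of the gene table whose symbol is Mrpl or Mrps followed by a number. There were 81 such rows among 13795, 51 named Mrpl after the large subunit and 30 named Mrps after the small subunit, and all 81 entered the test. One group of mice had oxaliplatin, a platinum anticancer drug, at a dose of 10 mg/kg (5 samples), and the other had vehicle (4 samples). Hearts of both groups were taken after 8 weeks, and the study set out to examine how the drug alters gene expression in the heart. Every sample carries the same strain label, and no transgene or other agent is named. The labels give no age or sex, no number of injections, and no statement that each sample was a separate mouse, and a p-value therefore speaks only of how far these samples scatter, part of which may be technical.

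Mitochondria keep a ribosome of their own, which translates the few messenger RNAs of the mitochondrial genome, all of them for subunits of the respiratory chain and ATP synthase. Its ribosomal RNAs are made from mitochondrial DNA, whereas its proteins are encoded in the nucleus, made in the cytosol and imported. Many of these proteins descend from bacterial ribosomal proteins, and the others are found only in mitochondria. Heart muscle is rich in mitochondria, and in humans variants of some of the genes, MRPL3, MRPL44 and MRPS22 among them, cause cardiomyopathy. Not every symbol matches its place in the structure. Mrps30 and Mrps18a belong to the large subunit, and Mrps36 is a part of the oxoglutarate dehydrogenase complex. Mrpl23-ps1, Mrpl48-ps and Mrps36-ps2 are pseudogenes, whose reads cannot be told apart with certainty from those of their parent genes.

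In the oxaliplatin hearts 2 mitochondrial ribosomal protein genes fell, Mrpl38 and Mrpl3, both of the large subunit, and none rose. For each gene the groups were compared with limma on log2(normalized count + 1), and an adjusted p under 0.05 over all 13788 genes tested passed. Among all genes tested 1966 passed (14.3%), of which 694 fell (5.03%) and 1272 rose (9.23%). In this main fit the share of mitochondrial ribosomal protein genes that fell was no larger than that of all genes, but this depended on the setting. With totals per sample set equal the whole-table counts were 269 lower and 1633 higher, and after quantile normalization they were 965 lower and 1151 higher. Of the 81 members 9 fell after quantile normalization, and 32 fell with array weights, where 1566 of 13788 genes fell. In both settings the members' share that fell was larger than that of all genes. The number of members that fell was 10 without oxaliplatin 1, 5 without oxaliplatin 5, 1 without oxaliplatin 2 or vehicle 1, and 0 without oxaliplatin 3, oxaliplatin 4, vehicle 2 or vehicle 3. Without vehicle 4 it was 2, but these were Mrpl57 and Mrps28 in place of Mrpl38 and Mrpl3. The members shared a small difference in one direction. Of the 81, 73 had a log2 fold change below 0 (90.1%), against 52.3% of all genes tested, and their median was -0.21, against -0.02 for all genes. With totals set equal, the medians were -0.08 for rows named Mrpl and -0.08 for rows named Mrps, against 0.11 for all genes. With mitochondrially encoded and haemoglobin genes removed they were -0.14 and -0.14, against 0.05 for all genes. At an unadjusted p under 0.05, 15 of the 81 were lower and 0 were higher, against 12.8% and 16% of all genes (28.8% in either direction). Genes of one ribosome vary together from sample to sample, so these counts are not counts of independent changes. In whole tissue, fewer cells of a type and less RNA per cell cannot be told apart.

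Mrpl38 encodes a mitochondria-specific protein of the large subunit's central protuberance, the knob that faces the small subunit. The gene lies at chr11:116131817-116138868 on the minus strand, in GENCODE M21 coordinates on GRCm38. It had 1360, 1131, 934, 928 and 1358 normalized counts in oxaliplatin hearts 1 to 5, against 1434, 1545, 1882 and 1627 in vehicle hearts 1 to 4. All oxaliplatin hearts lay below all vehicle hearts, and oxaliplatin hearts 1 and 5 came close to the lowest vehicle heart. The means were 1142 ± 214 in oxaliplatin hearts and 1622 ± 191 in vehicle hearts (SD, n = 5 and 4), a log2 fold change of -0.52 with an SE of 0.14 (limma adjusted p = 0.0287). The adjusted p of Mrpl38 was 0.0706 without oxaliplatin 3, 0.0702 without oxaliplatin 4, 0.0620 without vehicle 2, 0.102 without vehicle 3 and 0.0582 without vehicle 4.

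Mrpl3 encodes the counterpart of bacterial L3, a protein that reaches toward the peptidyl transferase centre, where peptide bonds form. It lies at chr9:105053239-105079888 on the plus strand. The 300 bases around its RefSeq start, from 250 before to 50 after, span chr9:105053018-105053317 on the plus strand of GRCm38.p6 and are printed 5′ to 3′ because this is one of the genes that fell, with the ETS-type motif CCGGAAG in capitals.

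Mrpl3 promoter: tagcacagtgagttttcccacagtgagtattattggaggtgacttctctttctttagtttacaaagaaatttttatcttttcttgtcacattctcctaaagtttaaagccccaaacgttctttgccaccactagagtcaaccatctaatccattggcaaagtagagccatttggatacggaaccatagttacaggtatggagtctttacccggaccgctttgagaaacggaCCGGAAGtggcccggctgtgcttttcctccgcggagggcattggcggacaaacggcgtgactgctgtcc

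Mrpl3 had 1409, 1026, 1008, 920 and 1315 normalized counts in the 5 oxaliplatin hearts, against 1533, 1456, 1679 and 1482 in the 4 vehicle hearts. Again no oxaliplatin heart reached the lowest vehicle heart, and oxaliplatin hearts 1 and 5 were the nearest to it. The means were 1136 ± 213 in oxaliplatin hearts and 1537 ± 99.8 in vehicle hearts (SD, n = 5 and 4), a log2 fold change of -0.45 with an SE of 0.13 (limma adjusted p = 0.0391). The call was lost without oxaliplatin 2 (adjusted p = 0.0587), oxaliplatin 3 (0.0906), oxaliplatin 4 (0.0933), vehicle 1 (0.0805), vehicle 2 (0.0736), vehicle 3 (0.118) or vehicle 4 (0.0605). Mrpl3 shares exon bases with a gene model on each strand, Gm38077 and Gm47106, and the strand setting of the counting is not given in the sources used here. Mrpl38 and Mrpl3 and the pseudogene Mrpl23-ps1 were the members whose groups did not overlap, 3 of 81, against 5.93% of all genes with every oxaliplatin heart below every vehicle heart. Mrpl23-ps1 had 240 to 284 normalized counts in oxaliplatin hearts and 303 to 411 in vehicle hearts, with a log2 fold change of -0.38 that did not pass (adjusted p = 0.0705).

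**Figure D1:**
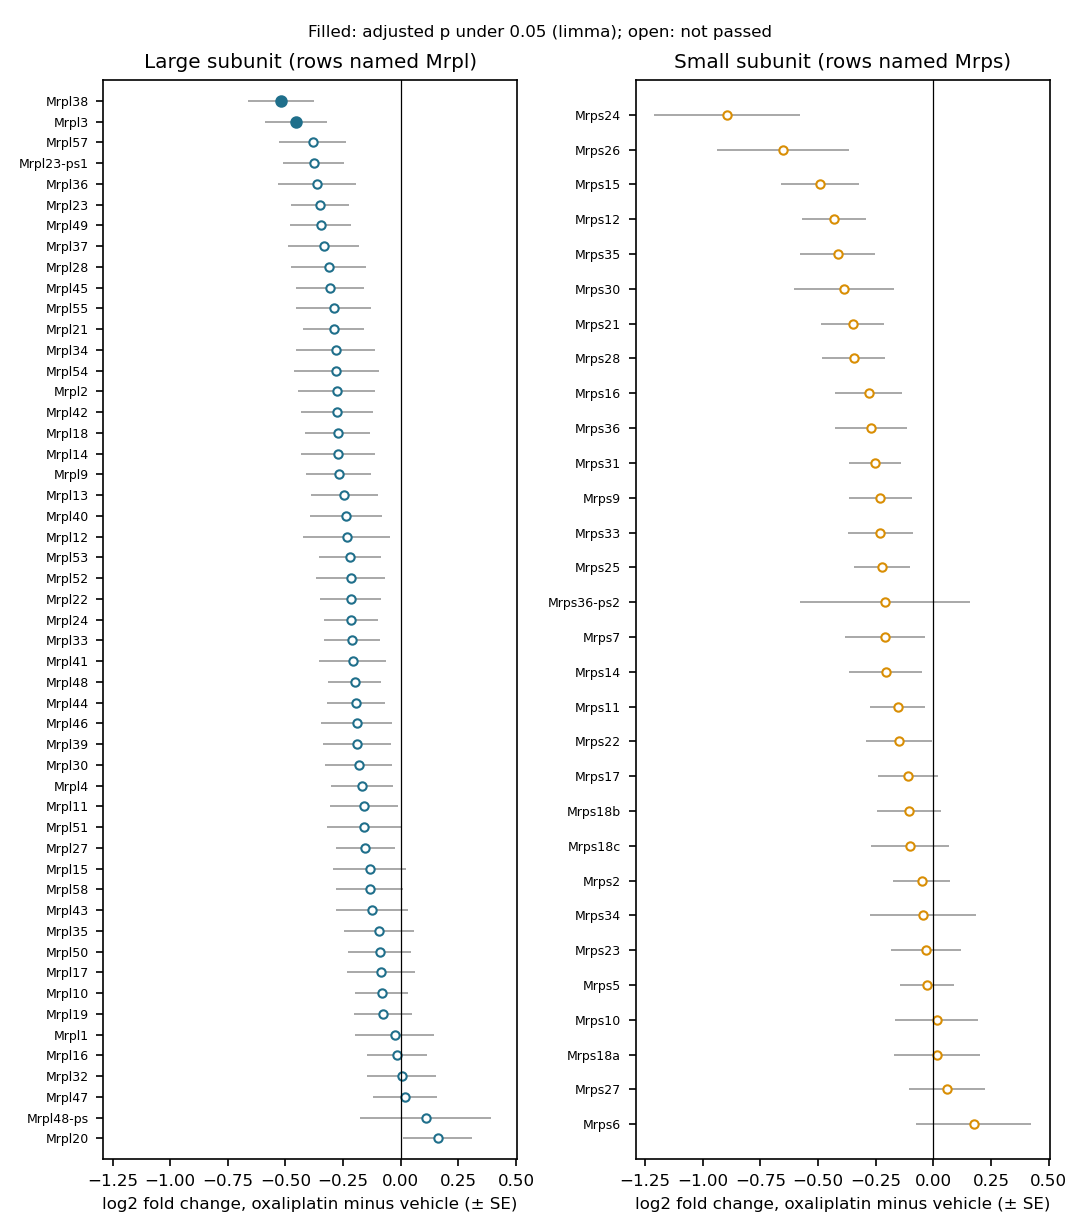
Log2 fold change, oxaliplatin minus vehicle, of each of the 81 mitochondrial ribosomal protein rows (x axis, points with bars of 1 SE, 5 oxaliplatin and 4 vehicle hearts), with rows named Mrpl in the left panel and rows named Mrps in the right. Most points lie left of 0, and Mrpl38 (-0.52) and Mrpl3 (-0.45), drawn filled, are the ones that passed.

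The subunits gave nearly the same result, as the plot of fold changes for every gene shows. Among rows named Mrpl 47 of 51 had a log2 fold change below 0, with a median of -0.21 and a range from -0.52 to 0.16. Among rows named Mrps 26 of 30 were below 0, with a median of -0.21 and a range from -0.89 to 0.17, and 0 of 30 passed limma's adjusted threshold while 8 had an unadjusted p under 0.05. With Mrps30 and Mrps18a counted in the large subunit and Mrps36 and the pseudogenes left out, the medians were -0.21 for 51 large-subunit and -0.21 for 26 small-subunit genes. The 47 members with a bacterial counterpart had a median of -0.21 with 1 lower, and the 30 found only in mitochondria had a median of -0.22 with 1 lower.

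A score per heart gave the balance between the subunits directly. It is the mean over genes of log2(normalized count + 1), after each gene was centred on its mean over all samples. The large-subunit score was 0.23, -0.17, -0.19, -0.35 and 0.03 in oxaliplatin hearts 1 to 5, against 0.04, 0.17, 0.34 and -0.10 in vehicle hearts 1 to 4. The small-subunit score was 0.23, -0.22, -0.24, -0.35 and 0.08 in oxaliplatin hearts, against 0.04, 0.18, 0.33 and -0.05 in vehicle hearts. Oxaliplatin 1 was above 3 of the vehicle hearts on both scores, oxaliplatin 5 was above vehicle 4 on both, and oxaliplatin 2, 3 and 4 were below every vehicle heart, so the groups overlapped. The large-subunit score minus the small-subunit score lay between -0.05 and 0.04 in oxaliplatin hearts and between -0.04 and 0.01 in vehicle hearts, and its group means differed by 0.01. In linear terms, summed normalized counts of the large-subunit rows were 2.27 to 2.39 times those of the small-subunit rows in oxaliplatin hearts and 2.32 to 2.41 times in vehicle hearts, pseudogenes left out. No difference in the balance of large and small subunit transcripts beyond the spread between hearts was therefore measured.

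**Figure D2:**
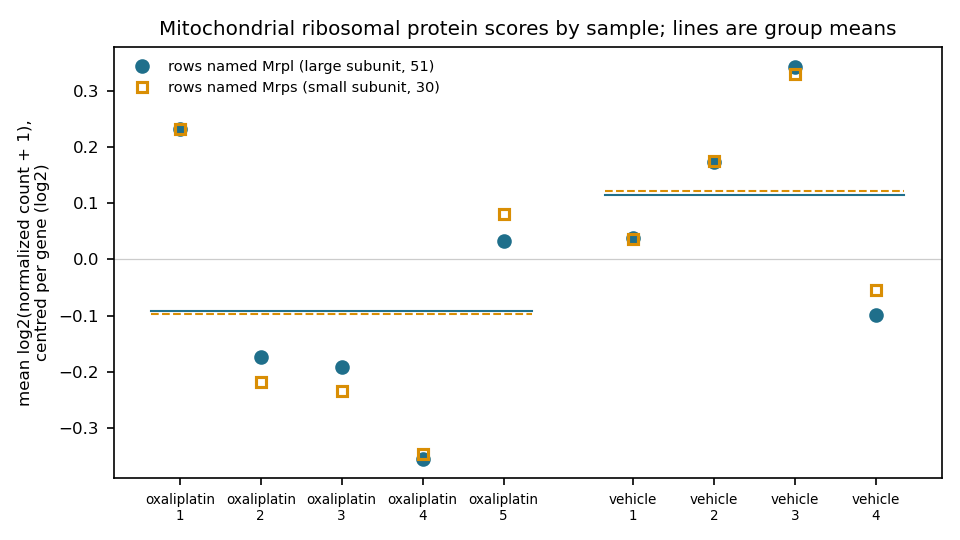
Score of the rows named Mrpl (filled circles) and of the rows named Mrps (open squares) in each heart, as mean centred log2(normalized count + 1) on the y axis, with lines at the group means, solid for Mrpl and dashed for Mrps. Within every heart the marks nearly coincide, while hearts of one group differ widely, from -0.35 in oxaliplatin 4 to 0.23 in oxaliplatin 1.

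The same few hearts set the order for most members. Oxaliplatin 4 was the lowest of all 9 hearts for 59 of the 81 members (72.8%, against 13.2% of all genes). Vehicle 3 was the highest for 49 (60.5%, against 11.3%). Below the vehicle mean lay 24 of the 81 in oxaliplatin 1, 78 in oxaliplatin 2, 79 in oxaliplatin 3, 80 in oxaliplatin 4 and 59 in oxaliplatin 5. Over all genes the share below it ran from 51% (oxaliplatin 2) to 53.5% (oxaliplatin 5). Oxaliplatin 1 was the highest of its group for 75 of the 81 (92.6%, against 27.5% of all genes). Vehicle 4 was the lowest of its own for 58, against 4365 of all 13795 genes. Among the 78 members that are not pseudogenes, the median SD within groups was 0.24 on the log2 scale, against 0.26 for all genes tested. Once each heart's member score was subtracted, it was 0.10, and 40 of the 78 were then under 0.1. The SD was larger among oxaliplatin than among vehicle hearts for 52 of the 78, and the same count over all genes was not made. After that subtraction Mrps6, Mrps24, Mrps26, Mrps30 and Mrps34 kept an SD over 0.2. The same score was taken from every gene, so a gene that follows the shared order with a wider swing also keeps a large SD. Mrps34 had 4548, 2054, 2270, 2447 and 4156 normalized counts in oxaliplatin hearts 1 to 5, with hearts 1 and 5 the highest, as for most members. It shares exon bases with Nme3 on the same strand.

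Mrps24 encodes the counterpart of bacterial S3, at the entry of the messenger RNA channel. It had 1022, 744, 1268, 470 and 1673 normalized counts in oxaliplatin hearts, against 1573, 1868, 2035 and 1599 in vehicle hearts. Oxaliplatin 4 had the fewest, and oxaliplatin 5 lay above vehicle 1 and vehicle 4. Its log2 fold change of -0.89 had the largest size of the 81, and its SE of 0.32 was wide (limma adjusted p = 0.0899). Mrps24 passed without oxaliplatin 5 (-1.10, adjusted p = 0.0262). Its exons share 226 bases with Urgcp on the same strand, and Urgcp had a log2 fold change of -0.09 (adjusted p = 0.755).

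Mrps26 encodes a small-subunit protein found only in mitochondria. It had 564, 300.3, 380.2, 285 and 846 normalized counts in oxaliplatin hearts, against 593, 729, 694 and 731 in vehicle hearts. Oxaliplatin 5 was the highest of all 9 hearts, whereas the other 4 oxaliplatin hearts were below every vehicle heart. The log2 fold change was -0.65 with an SE of 0.29 (adjusted p = 0.160, and 0.0152 without oxaliplatin 5). Mrps26 lies at chr2:130563742-130568695 on the plus strand, and its RefSeq start region, chr2:130563507-130563806, is printed as an example with several motifs. The capitals mark the ETS-type motif on the opposite strand, read here as CTTCCGG, and a pair of overlapping NRF1-type motifs GCGCANGCG.

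Mrps26 promoter: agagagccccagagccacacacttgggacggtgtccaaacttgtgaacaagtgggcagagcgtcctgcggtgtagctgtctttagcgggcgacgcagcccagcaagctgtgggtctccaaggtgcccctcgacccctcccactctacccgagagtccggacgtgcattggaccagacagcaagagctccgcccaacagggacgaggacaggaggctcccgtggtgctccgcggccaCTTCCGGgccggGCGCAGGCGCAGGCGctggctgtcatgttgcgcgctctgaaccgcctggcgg

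Mrps6 encodes the counterpart of bacterial S6 and stood at the other end. It had 709, 1505, 646, 1288 and 712 normalized counts in oxaliplatin hearts, against 930, 707, 874 and 742 in vehicle hearts. Oxaliplatin 2 and 4, low for most members, were the highest of all hearts here, and oxaliplatin 3 was the lowest. The log2 fold change was 0.17 with an SE of 0.25 (adjusted p = 0.684). Mrps6 shares exon sequence on the same strand with Slc5a3, a myo-inositol transporter gene, so reads of the pair cannot be fully separated. Slc5a3 had 46.6, 299.7, 111, 109.9 and 64.6 normalized counts in oxaliplatin hearts, against 140.0, 78.2, 57.1 and 101 in vehicle hearts, and it too was highest in oxaliplatin 2.

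**Figure D3:**
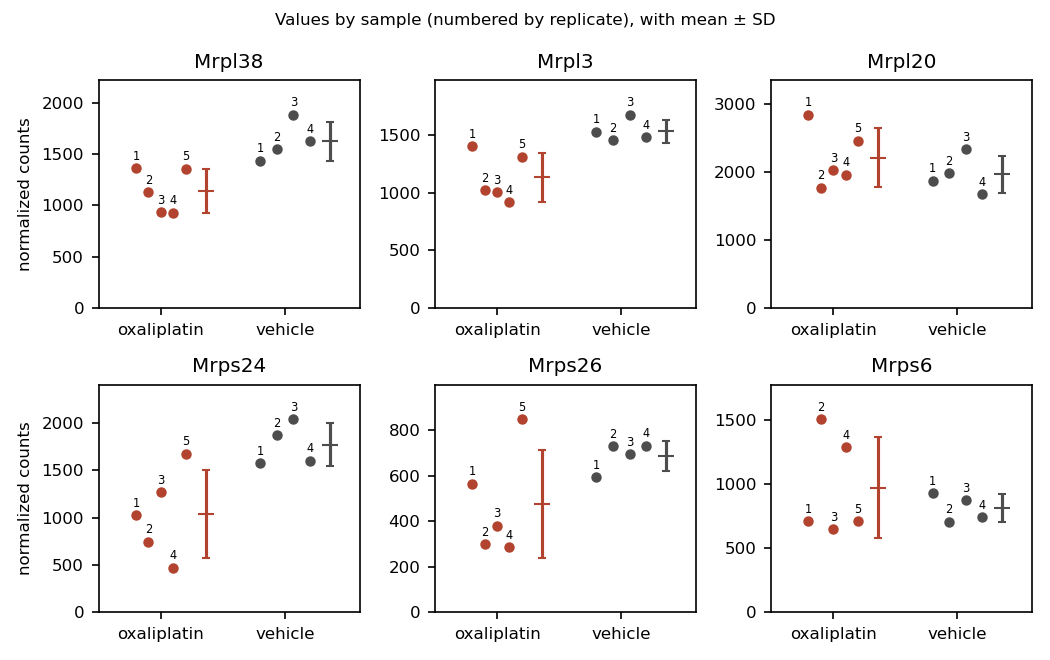
Normalized counts (y axis, from 0) of 6 members in each heart, numbered by replicate, with mean and SD bars for 5 oxaliplatin (left in each panel) and 4 vehicle hearts. Mrpl38 and Mrpl3 separate the groups, Mrpl20, Mrps24, Mrps26 and Mrps6 do not, and Mrps6 reaches 1505 in oxaliplatin 2.

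Other members with a large difference in size came from both subunits and did not pass. Mrps12, the counterpart of bacterial S12 at the decoding centre, ranged from 1140 to 1663 normalized counts in oxaliplatin hearts and from 1591 to 2199 in vehicle hearts, with a log2 fold change of -0.43 (adjusted p = 0.0560). Mrps15, counterpart of bacterial S15, had 1207 to 2078 in oxaliplatin hearts and 1899 to 2392 in vehicle hearts (-0.49, adjusted p = 0.0674). For both genes oxaliplatin 1 and 5 overlapped the vehicle hearts or came within reach of them, and oxaliplatin 2, 3 and 4 lay below all of them. Mrpl57, a small protein found only in mitochondria, had 903 to 1330 in oxaliplatin hearts and 1111 to 1752 in vehicle hearts (-0.38, adjusted p = 0.0997). Without oxaliplatin 1 the adjusted p was 0.0333 for Mrps12 and 0.0139 for Mrps15, without oxaliplatin 5 it was 0.0390 for Mrps12, and without vehicle 4 it was 0.0324 for Mrpl57.

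At the upper end were members whose group means hardly differed. Mrpl20, counterpart of a bacterial protein that binds ribosomal RNA early in assembly, had 2836, 1767, 2020, 1955 and 2457 normalized counts in oxaliplatin hearts, against 1869, 1976, 2328 and 1671 in vehicle hearts. The groups overlapped over most of their range, and the log2 fold change of Mrpl20 was 0.16 with an SE of 0.15 (adjusted p = 0.514). The log2 fold changes were 0.00 for Mrpl32 and 0.02 for Mrpl47, a protein near the exit of the peptide tunnel. They were 0.11 for Mrpl48-ps, 0.02 for Mrps10, 0.02 for Mrps18a and 0.06 for Mrps27, a pentatricopeptide repeat protein. None of these 6 passed, and their adjusted p ran from 0.836 to 0.991.

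Members with further roles, and those tied to cardiomyopathy in humans, did not pass, except Mrpl3. Mrpl12, a protein of the stalk that recruits translation factors and in human cells a reported partner of mitochondrial RNA polymerase, had 10574, 7007, 6842, 5724 and 10137 normalized counts in oxaliplatin hearts, against 7990, 9412, 11669 and 8189 in vehicle hearts. Oxaliplatin 1 and 5 were in the upper part of the vehicle range and the other 3 were below it, and the log2 fold change of Mrpl12 was -0.23 (adjusted p = 0.446). Mrpl58, a peptidyl-tRNA hydrolase that frees stalled chains, had a log2 fold change of -0.13 (adjusted p = 0.577). Mrps30 had 78.8 to 111 normalized counts in oxaliplatin hearts and 83.8 to 165 in vehicle hearts (-0.39, adjusted p = 0.262). Mrps36, of the dehydrogenase complex, had -0.27 (adjusted p = 0.273). Besides Mrpl3, Mrpl44 had -0.19 (adjusted p = 0.330) and Mrps22 had -0.15 (adjusted p = 0.534).

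Levels differed widely between genes of the same ribosome. Per kilobase of exon, the mean over all hearts was 6738 normalized counts for Mrpl28, 6412 for Mrps21, 6082 for Mrpl18 and 5624 for Mrpl12. With genes placed by structure and pseudogenes left out, the median per kilobase was 1016 over 51 large-subunit genes, with a range from 16.1 (Mrps30) to 6738, and 753 over 26 small-subunit genes, with a range from 94.5 (Mrps22) to 6412. Annotated exon length may exceed the length transcribed in heart, which would lower a value per kilobase. Among the highest per kilobase of the rows named Mrpl or Mrps were genes with log2 fold changes of -0.31 for Mrpl28, -0.27 for Mrpl18, -0.35 for Mrps21, -0.35 for Mrps28 and -0.03 for Mrps23, none of which passed (adjusted p from 0.108 to 0.914). Mrps21 (0.0406) and Mrps28 (0.0475) passed without oxaliplatin 1, and Mrps28 also without vehicle 4 (0.0405). All 81 together took 0.568% to 0.713% of normalized counts in oxaliplatin hearts and 0.649% to 0.744% in vehicle hearts.

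The genes share features of their start sites. In GENCODE 33 of the 78 protein-coding members (42.3%) start within 1000 bases of the start of a protein-coding gene on the other strand. Among protein-coding genes of the table it was 1924 of 12181 (15.8%). Some of these pairs, Mrpl43 and Twnk among them, overlap at their starts rather than running apart. Of the 28 tested partners that are not members, 4 were lower and 1 was higher, against 5.03% and 9.23% of all genes tested. Their median log2 fold change was -0.06. Mrpl57 and Ska3, a gene of the spindle and kinetochore in dividing cells, start 49 bases apart. Ska3 averaged 41.9 normalized counts in oxaliplatin hearts and 3.24 in vehicle hearts and rose by a log2 fold change of 3.23 (adjusted p = 0.00252), while Mrpl57 beside it had -0.38 and did not pass. Twnk, the mitochondrial DNA helicase gene that shares a start region with Mrpl43, fell by 0.40 on the log2 scale (adjusted p = 0.0351), and Mrpl43 had a log2 fold change of -0.13. The start region that Mrpl57 shares with Ska3, chr14:57825989-57826288 in GRCm38.p6 and printed along the plus strand, holds an NRF1-type motif and an ETS-type motif, in capitals.

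Mrpl57 promoter: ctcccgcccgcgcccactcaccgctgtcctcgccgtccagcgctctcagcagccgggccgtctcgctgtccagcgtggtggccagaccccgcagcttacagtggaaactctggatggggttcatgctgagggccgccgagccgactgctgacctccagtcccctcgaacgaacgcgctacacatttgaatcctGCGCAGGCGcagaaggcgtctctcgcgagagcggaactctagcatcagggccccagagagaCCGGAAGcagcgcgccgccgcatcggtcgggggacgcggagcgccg

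RefSeq promoters of the same 300 bases were to hand for 69 of the 81 members, 12 having no entry, Mrpl38 among them. The letters GCGCANGCG, a form of the NRF1 motif, occurred on either strand in 16 of the 69 (23.2%), against 13.7% of 10072 tested genes and 6.47% of 27025 promoters in all. CCGGAAG, an ETS-type motif such as GABP binds, occurred in 25 of the 69 (36.2%), against 18.3% of tested genes and 9.12% of all promoters. AAGATGGCG, a form of the YY1 motif, occurred in 8 (11.6%), against 3.21% and 1.49%. TATAAA occurred in 4 (5.80%), against 7.39% and 14.2%. All were searched on both strands, and none contains another. NRF1 and GABP are known as activators of nuclear genes for mitochondrial proteins. Members with and without the motif had nearly the same median log2 fold change, -0.22 and -0.21 for NRF1 and -0.22 and -0.21 for ETS. A match of letters is a description of the window and shows no binding.

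The other genes of mitochondrial translation were taken as lists. The 5 measured ribosomal proteins that carry other names (Dap3, Ptcd3, Aurkaip1, Chchd1 and Gadd45gip1) had a median log2 fold change of -0.23, and 0 of 5 passed limma's adjusted or the unadjusted threshold. Their smallest p values were those of Ptcd3 (-0.25, adjusted p = 0.204) and Gadd45gip1 (-0.36, adjusted p = 0.222). The ribosomal RNAs mt-Rnr1 and mt-Rnr2 had log2 fold changes of -0.13 and -0.17 (adjusted p = 0.601 and 0.593).

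Assembly of the mitochondrial ribosome needs GTPases, helicases and enzymes that modify its RNA. Of 30 assembly factors 6 fell and none rose, against 5.03% and 9.23% of all genes tested, with a median log2 fold change of -0.27. Noa1, a GTPase needed for the small subunit, had 51.4, 61.7, 65.7, 65.8 and 78.9 normalized counts in oxaliplatin hearts, against 114, 105, 106 and 133 in vehicle hearts. The groups were well apart for Noa1 (-0.82, SE 0.19, adjusted p = 0.0130). Mtg2, a GTPase of the large subunit, had 815, 868, 733, 539 and 711 in oxaliplatin hearts, against 1091, 1266, 1248 and 1059 in vehicle hearts. Its groups did not overlap either (-0.68, SE 0.14, adjusted p = 0.00671). The other 4 were Mtg1, another such GTPase (-0.39), Rpusd4, which makes pseudouridine in the large ribosomal RNA (-0.45), Tfb1m, which methylates the small ribosomal RNA (-0.52), and Mettl17, an assembly factor of the small subunit (-0.40).

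Of 22 genes for charging mitochondrial transfer RNAs 5 fell and none rose, against 5.03% and 9.23% of all genes tested, with a median of -0.25. Ears2, the glutamyl enzyme, had 216, 209, 204, 191 and 193 normalized counts in oxaliplatin hearts, against 308, 304, 298 and 284 in vehicle hearts. Spread within the groups was small for Ears2, and they did not overlap (-0.56, SE 0.12, adjusted p = 0.00943). Vars2, the valyl enzyme, had 174 to 290 in oxaliplatin hearts and 325 to 421 in vehicle hearts (-0.72, adjusted p = 0.0103). Aars2 (-0.71), Tars2 (-0.33) and Gatb (-0.47), of the amidotransferase that makes glutaminyl transfer RNA, were the other 3. Of 15 translation factors and messenger RNA binding proteins 1 fell, against the same 5.03% of all genes. It was Lrpprc, which stabilises mitochondrial messenger RNAs. Lrpprc had 899, 1013, 972, 992 and 1124 in oxaliplatin hearts, against 1267, 1368, 1499 and 1978 in vehicle hearts (-0.59, SE 0.13, adjusted p = 0.0103).

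Of 10 genes for transcribing and copying mitochondrial DNA 2 fell, the RNA polymerase Polrmt (-0.43) and Twnk, against 5.03% of all genes tested. Of 13 mitochondrially encoded messenger RNAs 1 fell, mt-Nd4 (-0.49), against the same 5.03%. Of these 15 calls in related lists 5 held whichever heart was left out, those of Noa1, Mtg2, Ears2, Vars2 and Lrpprc. Other alternatives ended calls among these 5. With totals set equal, Noa1 (adjusted p = 0.0674), Ears2 (0.0560) and Lrpprc (0.107) did not pass. Without the 4 hearts of high atrial score described further on, Noa1 (0.0953), Ears2 (0.114) and Vars2 (0.0937) did not. With a red cell marker score as a covariate Noa1 (0.110), Ears2 (0.0667) and Lrpprc (0.0537) did not, and with a cardiomyocyte marker score none of the 5 did (adjusted p up to 0.548). Ears2 was also lost with the replicate block (0.0514) and Lrpprc with mitochondrially encoded and haemoglobin genes removed (0.0533). The other 10 (Mtg1, Rpusd4, Tfb1m, Mettl17, Aars2, Tars2, Gatb, Polrmt, Twnk and mt-Nd4) were each lost without at least 1 heart, at adjusted p from 0.0503 to 0.146. Leaving out oxaliplatin 4 or vehicle 3 ended all 10, oxaliplatin 3 or vehicle 2 ended 9, vehicle 1 ended 8, oxaliplatin 5 ended 7, vehicle 4 ended 4, oxaliplatin 2 ended 3 and oxaliplatin 1 ended 1. The 37 nuclear genes of respiratory complex I had a median of -0.28, and 0 of 37 passed limma's adjusted threshold, 6 having an unadjusted p under 0.05. For the 81 proteins of the cytosolic ribosome, which the same nucleus supplies to the other translation machinery, the median was -0.05, with 1 higher and 1 lower.

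**Figure D4:**
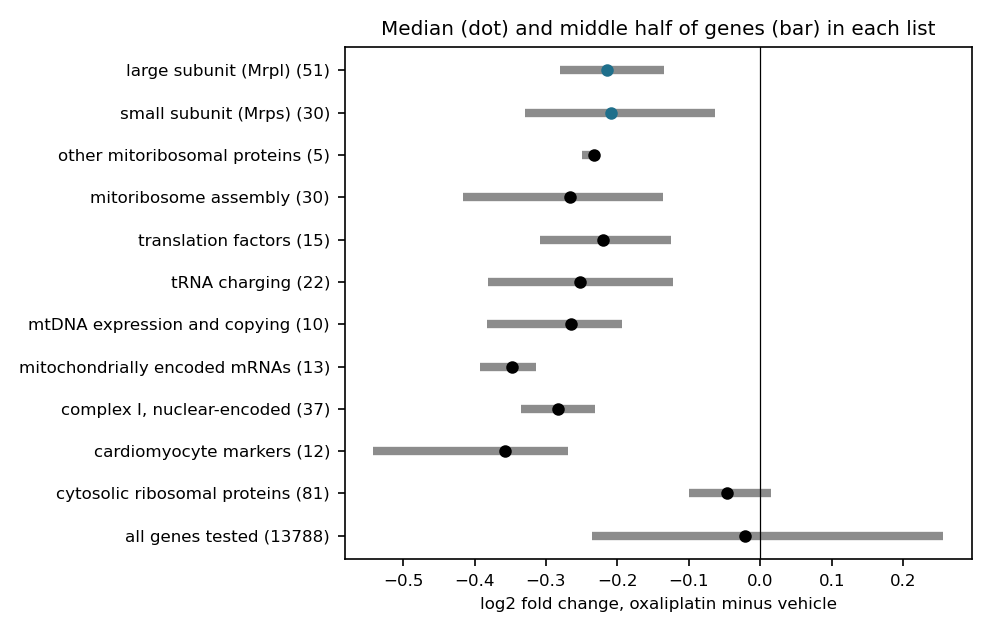
Median log2 fold change, oxaliplatin minus vehicle (dots), and the range between the 25th and 75th percentiles of genes (bars) for the mitochondrial ribosomal proteins and related lists, with the number of genes in brackets. The lists for mitochondria lie between -0.21 and -0.36 together with the cardiomyocyte markers, and the cytosolic ribosome (-0.05) lies near all genes (-0.02).

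Estimated reads behind each heart were 28.5 M to 36.2 M, and markers of cell types were measured in the same hearts. All 12 cardiomyocyte markers were present in every heart. They took 4.73% to 5.58% of normalized counts in oxaliplatin hearts and 5.30% to 6.91% in vehicle hearts, had a median log2 fold change of -0.36, and 3 of 12 fell, Myh6 (-0.67, adjusted p = 0.0197), Myl2 (-0.70, adjusted p = 0.0337) and Fabp3 (-0.54, adjusted p = 0.0487). The calls of Myl2 and Fabp3 were each lost without oxaliplatin 2, 3 or 4 or without vehicle 1, 2 or 3 (adjusted p from 0.0560 to 0.137). The 8 atrial markers, of which Bmp10 was at 0 in at least 1 heart, took 0.0867% to 2.82% of normalized counts in oxaliplatin hearts and 0.0336% to 1.15% in vehicle hearts. Markers of dividing cells rose in 8 of 8 (median 3.32, Bub1 at 0 in at least 1 heart) and of endothelium in 2 of 8 (Pecam1 and Fabp4, median 0.43). Of smooth muscle and pericytes 1 of 8 rose (Pdgfrb, median 0.59), with 5 higher and 1 lower at an unadjusted p under 0.05. Of macrophages 1 of 8 rose (Cd68, median 0.06), and 3 of the 8 had a log2 fold change below 0, 1 of them with an unadjusted p under 0.05. Over all genes tested 9.23% rose and 5.03% fell. Fabp4 was lost without vehicle 1, 2 or 4 (adjusted p from 0.0505 to 0.0588), and Pdgfrb without oxaliplatin 3, vehicle 2 or vehicle 3 (adjusted p up to 0.0760). Of fibroblasts (0 of 8, median 0.43, 0 with an unadjusted p under 0.05) and red cells (0 of 8, median -2.79, 6 with an unadjusted p under 0.05, Ahsp not analysed here) none passed limma's adjusted threshold. Red cell markers took 0.0259% to 1.21% of normalized counts in oxaliplatin hearts and 0.599% to 1.68% in vehicle hearts.

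Over the hearts the member score ran mostly with the cardiomyocyte score and mostly opposite to the atrial, fibroblast, and smooth muscle and pericyte scores. The score of all 81 members was 0.23, -0.19, -0.21, -0.35 and 0.05 in oxaliplatin hearts, against 0.04, 0.17, 0.34 and -0.08 in vehicle hearts. The cardiomyocyte score was 0.05, -0.26, -0.26, -0.36 and -0.02 in the same oxaliplatin hearts, against 0.07, 0.18, 0.33 and 0.27 in vehicle hearts. The atrial score was -4.53, 3.80, 1.25, 3.29 and -1.80 in oxaliplatin hearts, against 2.89, -1.52, -2.62 and -0.75 in vehicle hearts. The fibroblast score was -0.63, 0.29, 0.64, 0.91 and -0.01 in oxaliplatin hearts, against -0.10, -0.35, -0.68 and -0.08 in vehicle hearts. For smooth muscle and pericytes the score was -0.24, 0.55, 0.32, 0.51 and 0.05 in oxaliplatin hearts, against -0.59, -0.09, -0.56 and 0.04 in vehicle hearts. Oxaliplatin 2, 3 and 4, the lowest on the member score, were thus low on the cardiomyocyte score. They were high on the atrial, fibroblast, and smooth muscle and pericyte scores. Vehicle 1 was high on the atrial score with a member score between those of vehicle 2 and vehicle 4, and vehicle 4 had a low member score with a high cardiomyocyte score. The complex I score ran alongside at 0.32, -0.29, -0.28, -0.42 and 0.06 in oxaliplatin hearts, against 0.11, 0.26, 0.37 and -0.13 in vehicle hearts.

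**Figure D5:**
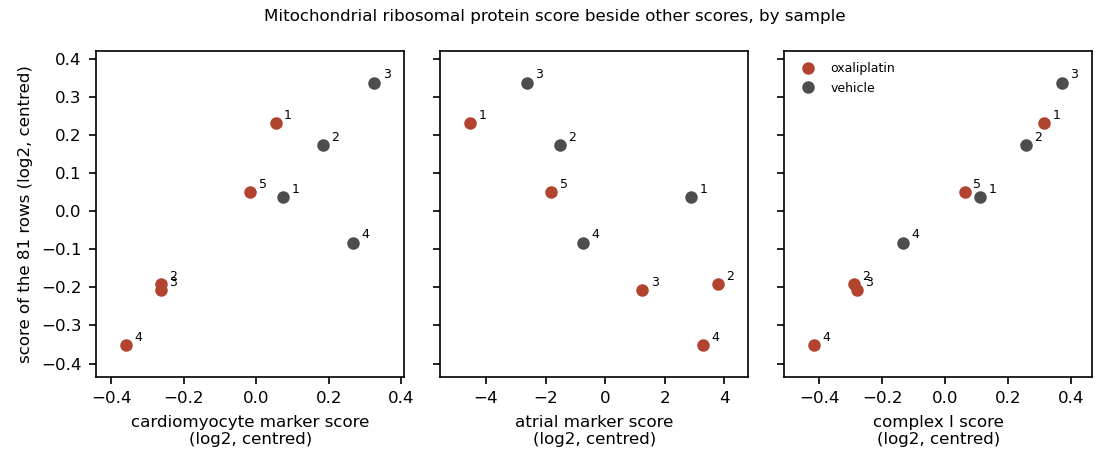
Score of the 81 members (y axis, mean centred log2) against the cardiomyocyte, atrial and complex I scores (x axes) in each of 5 oxaliplatin and 4 vehicle hearts, numbered by replicate. Oxaliplatin 2, 3 and 4 lie lowest in each panel, at low cardiomyocyte, high atrial and low complex I scores.

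Without the 4 hearts of high atrial score (oxaliplatin 2, 3 and 4 and vehicle 1), 2 oxaliplatin and 3 vehicle hearts remained. The median log2 fold change was then -0.02 for the large and -0.05 for the small subunit, 49 of the 81 members were below 0, and 0 of 81 passed limma's threshold, while 1670 genes of the whole table did. In that subset Mrpl38 had -0.30 (adjusted p = 0.230) and Mrpl3 had -0.17 (adjusted p = 0.511). With the cardiomyocyte score as a covariate the medians were 0.21 and 0.20. On that score every oxaliplatin heart (highest 0.05) lay below every vehicle heart (lowest 0.07), so the fit cannot cleanly separate the score from treatment. With the red cell score as a covariate both medians were -0.30. The members' difference was near 0 without those 4 hearts, and of the opposite sign with the cardiomyocyte score in the fit. Oxaliplatin 2, 3 and 4 had the lowest member scores of all hearts, so a smaller difference without them followed from the choice of hearts. It cannot show what part the atrial share had. The part of chamber and cell make-up in the members' difference was not tested.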

How the data were processed

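RNA was sequenced from mouse heart, 5 oxaliplatin and 4 vehicle samples, grouped by their titles; a Clontech SMARTer kit served for library preparation, per the labels' protocols. The authors deposited a signal per gene and sample, named normalized counts per the file headers. The submitters' processing notes list STAR 2.5.1a, Partek and DESeq2 with no role for each. The genome build, gene annotation and strand handling behind the table were not given in the sources used here. Totals were 29.4 M to 36.9 M normalized counts. Low values lay on steps, but 66.5% to 75.1% of values between 1 and 1000 estimated reads were within 0.02 of whole reads, so a log-scale test was used.

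Over genes whose mean reached 10, limma 3.58.1 (R 4.3.3, trend and robust moderation) compared the groups on log2(normalized count + 1), which understates changes of low genes. Tests were two-sided with Benjamini-Hochberg adjustment over all genes. Members and lists were chosen with earlier results of these data known, so lists have counts and medians and no test. Named genes were members that passed, the 4 largest rises and falls in each subunit, the 3 highest per kilobase in each, members of other role or tied to human cardiomyopathy, and list genes that passed, or the 2 of smallest p. Some values of that rule are not printed. Positions and exon lengths come from GENCODE M21 on GRCm38, matched by symbol for 81 of 81 members, and promoters from RefSeq on GRCm38.p6. Alternatives covered pseudocount, filter, scaling (trimmed mean of M-values, TMM, among them), limma settings, replicate block, covariates, voom on estimated reads, subunit assignment and samples left out. The steps were tested on simulated data.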

Additional observations from a re-analysis of the deposited data

Results flagged for a closer look

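Values by heart were searched for a single heart far from the rest of its group, in 62 groups of named genes and scores, and 2 were found, where chance gives about 1 in 20. Mrpl44, a large-subunit protein, had 3176.3 normalized counts in vehicle 3, against 2674 to 2756 in the other 3 vehicle hearts. Vehicle 3 was the highest vehicle heart for 71 of the 81 members. Once each heart's member score was subtracted, Mrpl44 was at -0.06 in vehicle 3, against -0.10 to 0.11 in the other vehicle hearts (log2, centred), and no longer stood apart. Slc5a3, which overlaps Mrps6, had 299.67 normalized counts in oxaliplatin 2, against 46.6 to 111 in the other 4 oxaliplatin hearts.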

How the results depend on the processing

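Main counts were 1966 genes in all and 2 of the 81 mitochondrial ribosomal protein genes, 2 of the large and 0 of the small subunit. With totals set equal (the median of all genes moved to 0.11), with limma without trend and robust moderation, and without the hearts of high atrial score, 0 members and 0 of the large subunit passed. Quantile normalization gave 9 members, 4 large and 5 small, all lower, where 965 genes of the whole table were lower. Array weights gave 3541 genes, 1566 of them lower, and 32 members, all lower, 23 large and 9 small. Replicate numbers did not pair the hearts (correlations of deviations of -0.273, -0.0636, -0.0935 and 0.250, with 1 vehicle heart correlating best with its own number); with the replicate block 1413 genes and 4 members passed, 2 of them small. The red cell score as a covariate gave 1063 genes and 1 member, of the large subunit. The cardiomyocyte score as a covariate gave 585 genes, 0 large and 2 small subunit genes, both higher, with medians of 0.21 and 0.20; Mrpl38 (0.0245), Mrpl3 (0.0247) and Myl2 (0.00095), which is part of that score, changed sign. With mitochondrially encoded and haemoglobin genes removed 1 small-subunit gene passed. Leaving out 1 heart gave 1110 (without vehicle 3) to 2388 (without oxaliplatin 2) genes. It gave 0 members (without oxaliplatin 3, oxaliplatin 4, vehicle 2 or vehicle 3), 1 (without oxaliplatin 2 or vehicle 1), 2 (without vehicle 4, Mrpl57 and Mrps28 in place of Mrpl38 and Mrpl3), 5 (without oxaliplatin 5) or 10 (without oxaliplatin 1), 0 to 5 of either subunit, with medians from -0.29 to -0.15 (large) and -0.29 to -0.12 (small). Of 24 alternatives, Mrpl38 passed in 15 and Mrpl3 in 12. The cause of these changes was not tested. With 5 and 4 hearts, log2 fold changes as large as those of Mrps12 (-0.43, SE 0.14) and Mrpl57 (-0.38, SE 0.15) did not pass, so differences of that size in a single member were not always detectable.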

Other observations

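In the cytosolic ribosome, the genes that passed were a pair of paralogs that moved in opposite directions. Rpl3 had 17378, 15727, 13041, 15818 and 13303 normalized counts in oxaliplatin hearts, against 12280, 10484, 9083 and 7677 in vehicle hearts. Every oxaliplatin heart lay above every vehicle heart, and Rpl3 rose by a log2 fold change of 0.62 (SE 0.15, limma adjusted p = 0.0155, and 0.0562 without vehicle 3). Rpl3l, the paralog made in heart and skeletal muscle, had 2941, 2352, 2893, 2104 and 3690 normalized counts in oxaliplatin hearts, against 4050, 4910, 5645 and 4609 in vehicle hearts. Its groups did not overlap either, and it fell by 0.80 on the log2 scale (SE 0.16, adjusted p = 0.00626). Both are counterparts of bacterial L3, as is Mrpl3. Each passed in 13 of the 15 alternatives that left out no single heart. How reads shared by the paralogs were counted is not given in the sources used here. The pair was picked out after its values were seen.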
